A study of Mus musculus with 2 samples.

Results

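Cxcl12 and its receptors Cxcr4 and Ackr3 were followed through cells of the mouse lung, as the rows of 2 single-cell count tables that carry these symbols, 3 of 27998 genes. One table came from knockout mice (KO) and one from wild-type mice (WT), both C57BL/6J and 10-12 weeks old, in a study of hereditary hemorrhagic telangiectasia type 2, a disease of fragile, malformed vessels. The labels give neither the gene nor the allele behind the knockout, nor the number of animals per library; the disease itself is known to come from ACVRL1, the gene of the endothelial BMP receptor ALK1. Lungs had been dissociated with dispase and DNase, and cells sorted for VE-cadherin, a junction protein of endothelium, and against CD45, a protein of leukocytes. With 1 library a group there is no replicate and no test, so every interval below (95%, exact) covers counting error only and differences between animals are not measured.

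Cxcl12 encodes a secreted chemokine that is held on heparan sulfate and steers cells that carry its receptors. Cxcr4 is the G protein-coupled receptor that signals in response to it, known in endothelium from sprouting vessels and from the building of arteries. Ackr3, also called Cxcr7, is an atypical receptor that recruits arrestin, takes the ligand up and removes it from the surroundings. The ligand is known to be strong in arterial endothelium and in stromal cells such as fibroblasts.

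After filtering, 1314 KO cells with a median of 8654 UMIs (unique transcript counts) and 2708 WT cells with a median of 5423 UMIs remained. Levels are given as CPM, counts scaled to a fixed total of the UMIs in the class. Cells were grouped by marker genes, with the 3 genes themselves left out of the clustering, and 485 KO cells (36.9%) and 1480 WT cells (54.7%) were endothelial-like; the largest other class was alveolar type 2 epithelium (AT2-like), with 553 KO and 790 WT cells, in spite of the sort. The endothelial-like cells held general capillary cells (gCap-like, 203 KO and 739 WT), aerocytes of the thin gas-exchange surface (aCap-like, 69 and 396), arterial-like (23 and 77) and venous-like cells (13 and 54), and a cluster led by Esm1 (46 and 210). They also held lymphatic-like cells (7 and 3). Hbb-bs, a haemoglobin transcript, led 1 of the 2 clusters that make up the gCap-like cells. A last cluster, led by Igfbp3, held 124 KO cells and 1 WT cell and may therefore be a property of 1 library rather than a cell type. It had 6 of 11 tip cell markers at least 2-fold above the other endothelial cells, yet Trp53i11 alone of them was among its 10 leading genes and had been listed with earlier results known, so it is called by its leading gene. Acvrl1 stood at 1266 CPM (1196 to 1339) in KO and 1325 CPM (1282 to 1368) in WT gCap-like cells and at 408 CPM (361 to 459) in the Igfbp3-led KO cells; 3' counts need not cover a deleted part and do not check the knockout. The libraries shared 12 barcodes, 6 of them among the cells kept.

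All 3 genes are annotated once in GENCODE M21 (GRCm38) with no overlapping gene. Cxcl12 (ENSMUSG00000061353) lies on chromosome 6, chr6:117168535-117181367, plus strand. Both receptors lie on chromosome 1, Cxcr4 (ENSMUSG00000045382) at chr1:128588199-128592293 on the minus strand and Ackr3 (ENSMUSG00000044337) at chr1:90203980-90216751 on the plus strand. Because both receptors were highest in the same KO cells and the ligand was low there, the 150 bases before each RefSeq start (build GRCm38.p6, 5′ to 3′ on the gene's strand) are shown. They lie at chr6:117168385-117168534 for Cxcl12, chr1:128592300-128592449 for Cxcr4 and chr1:90203830-90203979 for Ackr3, and capitals mark matches, on either strand, to TATAAA (the TATA box), GGCGCC (a GC-rich element bound by BMP-activated SMADs) and ACGTG (a form of the core of the hypoxia response element).
Cxcl12: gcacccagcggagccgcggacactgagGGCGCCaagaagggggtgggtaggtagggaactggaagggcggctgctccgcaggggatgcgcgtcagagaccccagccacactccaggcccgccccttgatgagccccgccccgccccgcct
Cxcr4: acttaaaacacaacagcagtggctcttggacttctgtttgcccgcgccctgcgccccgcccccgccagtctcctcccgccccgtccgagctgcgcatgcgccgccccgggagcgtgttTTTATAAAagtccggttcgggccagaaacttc
Ackr3: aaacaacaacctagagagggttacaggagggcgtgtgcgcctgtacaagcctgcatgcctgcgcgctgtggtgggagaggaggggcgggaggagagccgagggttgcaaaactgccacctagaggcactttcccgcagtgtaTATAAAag
Both receptors held TATAAA, starting 30 bases before the start in Cxcr4, where a second match on the opposite strand overlaps it, and 8 bases before it in Ackr3. Cxcl12 held no TATAAA but 1 GGCGCC, starting 123 bases before its start, and none of the 3 windows held ACGTG. Other forms of the hypoxia response core, such as GCGTG, were not searched or marked. Of all 32851 promoter windows of this length, 7.57% held TATAAA, 7.01% held GGCGCC and 11.2% held ACGTG. A match is a string of letters, and factor binding was not measured.

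The ligand was highest in arterial-like cells of both libraries. Cxcl12 reached 4626 CPM (4281 to 4991) in the 23 KO arterial-like cells and 5979 CPM (5724 to 6243) in the 77 WT ones, with a median of 26 UMIs per KO cell and 20 UMIs per WT cell. These cells made up 1.75% of KO and 2.84% of WT cells but held 35.4% and 32.7% of their library's Cxcl12 UMIs. Against gCap-like cells of the same library the arterial-like level was 7.14-fold (6.39 to 7.98) higher in KO and 7.43-fold (6.996 to 7.89) higher in WT. With each cell thinned to 1500 UMIs, 86.4% of KO and 97.3% of WT arterial-like cells had a Cxcl12 UMI, against 0.187% of KO and 1.66% of WT AT2-like cells. AT2-like cells serve as a low reference, but they are deeper and need not give the level of free RNA in shallower cells. Median depth before thinning was 5732 UMIs in KO and 4403 UMIs in WT arterial-like cells and 19930 UMIs in KO and 17753 UMIs in WT AT2-like cells. An unnamed cluster led by haemoglobin transcripts had a median of 935 UMIs in KO and 1087 UMIs in WT. Its Cxcl12 was 82.7 CPM (39.7 to 152) in KO and 159 CPM (112 to 220) in WT, and how much of that was free RNA was not tested.

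Capillary cells split by type. Cxcl12 in gCap-like cells was 648 CPM (598 to 701) in KO and 805 CPM (772 to 839) in WT, whereas aCap-like cells had 9.28 CPM (2.53 to 23.8) in KO, from 4 UMIs, and 40.1 CPM (32.0 to 49.5) in WT. In the Esm1-led cells, whose leading gene is an endothelial proteoglycan also known from sprouting vessels, it was 552 CPM (461 to 655) in KO and 1107 CPM (1041 to 1176) in WT. Venous-like cells had 2 UMIs in 13 KO cells and 64 UMIs in 54 WT cells, and a single WT cell held 50 of those 64 UMIs.

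Among stromal cells the ligand went with adventitial fibroblast-like cells, the fibroblasts around larger vessels and airways, at 428 CPM (383 to 478) in KO and 610 CPM (557 to 667) in WT. A second fibroblast cluster, led by Npnt together with AT2 genes such as Sftpc, had 1 UMI in 37 KO cells and 17 UMIs in 67 WT cells. Smooth muscle-like cells had 112 CPM (86.1 to 144) in KO and 215 CPM (180 to 255) in WT, but 1 WT cell held 81 of the 132 UMIs. Pericyte-like cells had 0 UMIs in 21 KO cells, where 3 counts would be 17.0 CPM, and 4 UMIs in 23 WT cells.

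Among classes with at least 20 cells, the order of Cxcl12 in KO was arterial-like, gCap-like, Esm1-led, adventitial fibroblast-like, smooth muscle-like and Igfbp3-led, and the intervals of gCap-like, Esm1-led and adventitial cells overlapped their neighbours'. In WT it was arterial-like, Esm1-led, gCap-like, adventitial fibroblast-like, smooth muscle-like and venous-like, with the last pair overlapping and the others apart.

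**Figure D1:**
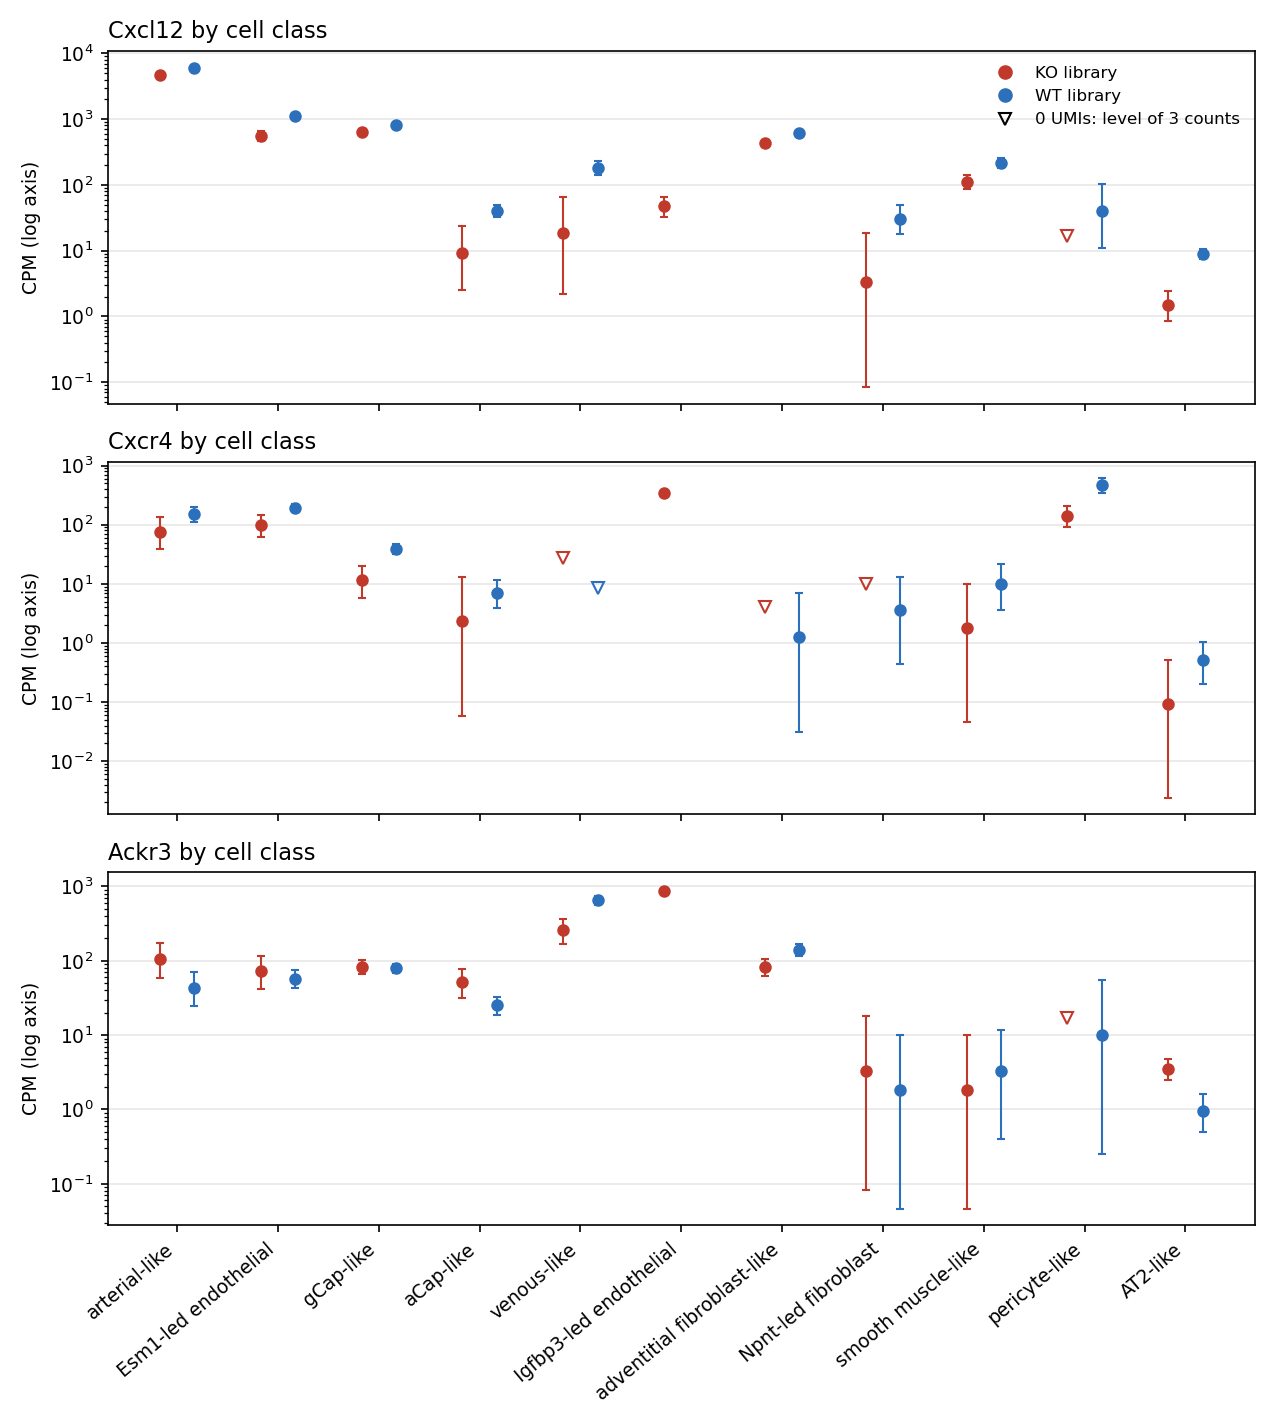
Levels of Cxcl12, Cxcr4 and Ackr3 (CPM, log axis) in 11 cell classes with at least 10 cells, KO left of WT; bars are 95% Poisson intervals and open triangles stand at the level of 3 counts where a class had 0 UMIs. Cxcl12 peaks in arterial-like cells at 4626 CPM in KO and 5979 CPM in WT, while both receptors peak among KO endothelial cells in the Igfbp3-led cluster, at 341 and 868 CPM.

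The signalling receptor Cxcr4 was found in pericyte-like, Esm1-led and arterial-like cells of both libraries. Pericyte-like cells, the contractile cells that wrap capillaries, had 141 CPM (91.4 to 209) in KO and 472 CPM (347 to 627) in WT. Esm1-led cells had 97.6 CPM (61.9 to 146) in KO and 190 CPM (164 to 220) in WT, 8.56-fold (4.01 to 19.5) and 4.86-fold (3.81 to 6.22) the gCap-like level of the same library. Arterial-like cells had 76.5 CPM (38.2 to 137) in KO and 151 CPM (113 to 198) in WT, so the arterial cells that held the most ligand also held transcripts of its signalling receptor.

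Cxcr4 was low in gCap-like cells, at 11.4 CPM (5.69 to 20.4) in KO and 39.2 CPM (32.2 to 47.3) in WT, and in aCap-like cells it was 2.32 CPM (0.0588 to 12.9) in KO and 6.99 CPM (3.91 to 11.5) in WT. The aCap-like level over the gCap-like level was 0.178 (0.0965 to 0.307) in WT. No venous-like cell of either library had a UMI, and 3 counts would be 27.5 CPM in KO and 8.54 CPM in WT. Adventitial fibroblast-like cells had 0 UMIs in KO and 1 UMI in WT. The 8 leukocyte-like WT cells, a class known for this receptor, had 14 UMIs, or 583 CPM (319 to 978).

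In WT the order of Cxcr4 was pericyte-like, Esm1-led, arterial-like, gCap-like and smooth muscle-like, and the Esm1-led and arterial-like intervals overlapped. In KO the Igfbp3-led cells came first, and the pericyte-like, Esm1-led and arterial-like cells that followed overlapped their neighbours.

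In WT the atypical receptor Ackr3 was highest in venous-like cells, whereas in KO it was highest in the Igfbp3-led cells. Venous-like cells had 256 CPM (170 to 370) in KO, from 28 UMIs in 13 cells, and 649 CPM (568 to 739) in WT, from 228 UMIs in 54 cells. That was 3.09-fold (1.93 to 4.81) the gCap-like level in KO and 8.17-fold (6.76 to 9.87) in WT. In KO 1 venous-like cell held 11 of the 28 UMIs and the 5 highest cells held 82.1%. The KO venous-like interval overlapped that of arterial-like cells (58.4 to 172). It also overlapped that of the 7 lymphatic-like KO cells, at 165 CPM (85.3 to 288) from 12 UMIs. At 1500 UMIs per cell, 30.8% (9.09 to 61.4) of KO and 58.0% (43.2 to 71.8) of WT venous-like cells had an Ackr3 UMI, against 0.375% of KO and 0 of 785 WT AT2-like cells (exact upper limit 0.469%).

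Elsewhere in the endothelium outside the Igfbp3-led cluster the Ackr3 values were lower. It was 82.9 CPM (65.7 to 103) in KO and 79.5 CPM (69.3 to 90.6) in WT gCap-like cells, 72.1 CPM (42.0 to 115) in KO and 56.8 CPM (42.7 to 74.1) in WT Esm1-led cells, and 51.1 CPM (32.0 to 77.3) in KO and 25.1 CPM (18.9 to 32.8) in WT aCap-like cells. Arterial-like cells had 15 UMIs in each library, which is 104 CPM (58.4 to 172) in KO and 43.5 CPM (24.3 to 71.7) in WT. The shallow unnamed cluster led by haemoglobin transcripts had 49.6 CPM (18.2 to 108) in KO and 35.4 CPM (15.3 to 69.7) in WT. Its intervals overlapped those of each of these endothelial classes in the same library. Adventitial fibroblast-like cells had 82.4 CPM (63.2 to 106) in KO and 141 CPM (116 to 170) in WT, with 64.5% of the KO and 60.2% of the WT UMIs in 5 cells. Smooth muscle-like cells had 1 UMI in KO and 2 UMIs in WT, and pericyte-like cells 0 and 1. In WT, venous-like cells were set apart from adventitial fibroblast-like cells, which were set apart from gCap-like cells, and all later neighbours overlapped. In KO the Igfbp3-led cells stood apart, and arterial-like, gCap-like, adventitial, Esm1-led and aCap-like cells overlapped from one to the next.

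The Igfbp3-led KO cells combined low ligand with high levels of both receptors. Cxcl12 was 47.1 CPM (32.2 to 66.5) in them and 729 CPM (692 to 768) in the other KO endothelial-like cells, a ratio of 0.0646 (0.0440 to 0.0916). Cxcr4 was 341 CPM (299 to 388) in them and 23.5 CPM (17.2 to 31.4) in the others, a ratio of 14.5 (10.6 to 20.4). Ackr3 was 868 CPM (799 to 941) in them and 88.9 CPM (76.2 to 103) in the others, a ratio of 9.76 (8.23 to 11.6). Here and below a gene is called where the CPM differ at least 1.5-fold with intervals that do not overlap, among genes averaging at least 10 CPM. By that rule both receptors were called higher, as were 7.32% of the 8397 genes, and the ligand was called lower, as were 8.47%. The 3 genes took no part in the clustering, but genes that vary with them did.

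These 124 cells, 9.44% of the KO cells, held 75.6% of all Cxcr4 UMIs and 67.5% of all Ackr3 UMIs of the KO library, and 1.70% of its Cxcl12 UMIs. Against WT endothelial classes, their Cxcr4 was 1.79-fold (1.47 to 2.19) the level of WT Esm1-led cells, a call that 7.27% of 8393 genes shared. Their Ackr3 was 1.34-fold (1.15 to 1.57) that of WT venous-like cells and was not called, where 9.44% of 8471 genes were called higher. Their 341 CPM (299 to 388) of Cxcr4 stood below the 472 CPM (347 to 627) of WT pericyte-like cells, with overlapping intervals. The most UMIs in 1 cell were 18 for Cxcr4 and 19 for Ackr3, and the 5 highest cells held 32.3% and 14.2% of the UMIs. The 1 WT cell of the cluster had 5 Cxcr4 UMIs, 2 Ackr3 UMIs and no Cxcl12 UMI. Markers of other cells were also summed there. The 11 AT2 markers came to 2643 CPM, against 2773 CPM in KO gCap-like cells and 240363 CPM in KO AT2-like cells, the 12 leukocyte markers to 280 CPM with 7 at 0 (330 CPM with 8 at 0 in KO gCap-like cells), and the 10 smooth muscle markers to 253 CPM with 1 at 0 (110 CPM with 3 at 0). The 13 endothelial markers summed to 16836 CPM with none at 0.

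Set beside WT, the pooled KO endothelium therefore mixed unlike cells. Over all endothelial-like cells Cxcl12 was 553 CPM (525 to 582) in KO and 835 CPM (813 to 857) in WT, a ratio of 0.663 (0.625 to 0.702). Cxcr4 was 105 CPM (93.4 to 119) in KO and 54.9 CPM (49.4 to 60.8) in WT, a ratio of 1.92 (1.64 to 2.25). Ackr3 was 290 CPM (270 to 311) in KO and 87.0 CPM (80.1 to 94.5) in WT, a ratio of 3.33 (2.98 to 3.72). All 3 were called, where 3.96% of 8627 genes were called higher and 5.15% lower.

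Without the Igfbp3-led cells the picture changed for both receptors. Leaving them out removed 124 KO cells, with 232 of the 278 Cxcr4 UMIs of KO endothelial-like cells, but 1 WT cell. The 2 libraries were therefore not cut alike. Cxcr4 was then 23.5 CPM (17.2 to 31.4) in KO and 54.2 CPM (48.7 to 60.1) in WT, a ratio of 0.434 (0.312 to 0.591) and a call in the opposite direction, where 3.38% of 8628 genes were called lower. Ackr3 was 88.9 CPM (76.2 to 103) in KO and 86.8 CPM (79.8 to 94.2) in WT, a ratio of 1.02 (0.860 to 1.22). Cxcl12 was 729 CPM (692 to 768) in KO and 835 CPM (813 to 858) in WT, a ratio of 0.873 (0.823 to 0.925) that does not reach 1.5-fold.

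**Figure D2:**
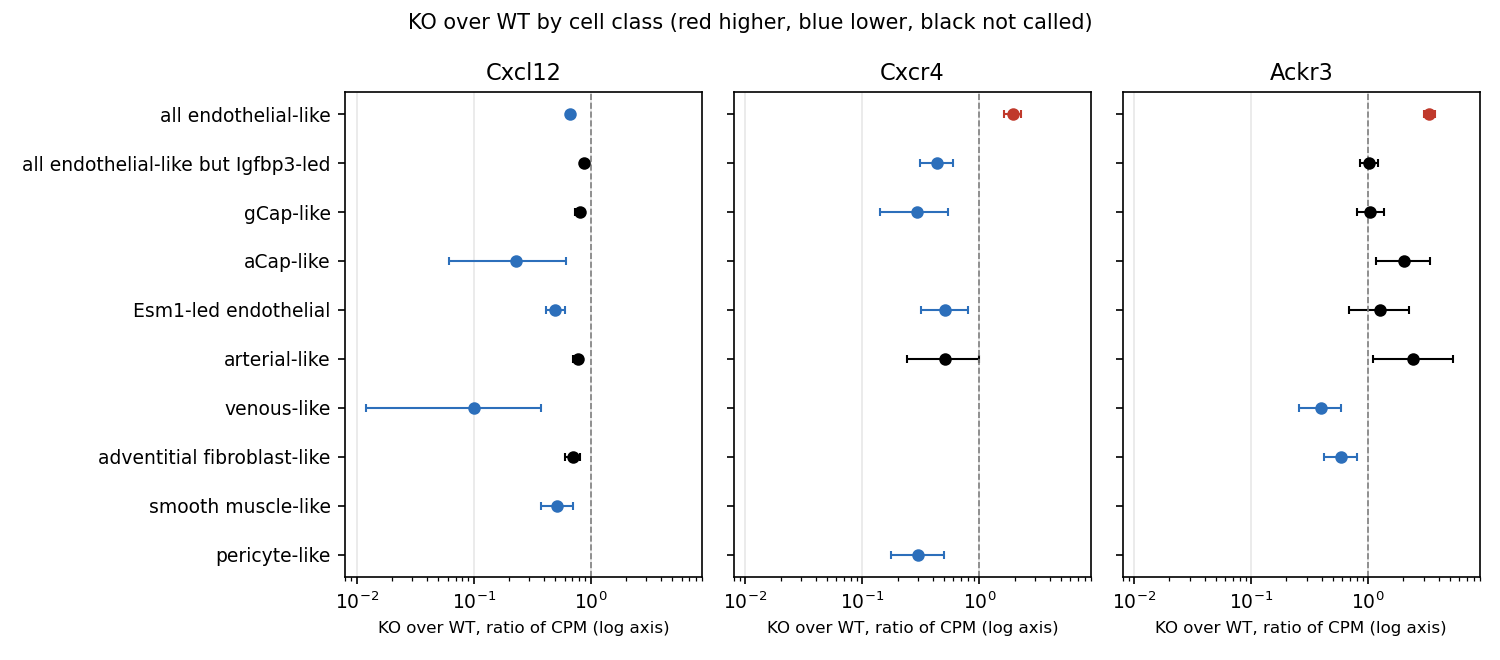
Ratio of KO over WT CPM (log axis) for each gene by cell class, with exact 95% intervals, for classes with at least 30 UMIs over both libraries and at least 1 in KO; red is called higher, blue called lower, black not called. Cxcr4 and Ackr3 are red over all endothelial-like cells, and with the Igfbp3-led cells left out Cxcr4 is blue at 0.434 and Ackr3 black at 1.02.

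Within the capillary and arterial classes the KO values of Cxcr4 lay below the WT values. In gCap-like cells the ratio was 0.291 (0.141 to 0.541), from 11 UMIs in KO and 109 in WT, and it was called lower, as were 2.71% of 8526 genes. In Esm1-led cells it was 0.512 (0.317 to 0.793), also called, where 1.43% of 8447 genes were called lower, and in arterial-like cells 0.508 (0.239 to 0.985), with overlapping intervals and no call. In pericyte-like cells it was 0.300 (0.177 to 0.497), called lower as were 1.98% of 8646 genes. The pericyte-like cells also differed in smooth muscle markers, which summed to 5381 CPM with 3 of 10 at 0 in KO and 923 CPM with 4 of 10 at 0 in WT, and their part in the result was not tested. Both gCap-like clusters showed the lower Cxcr4 level, at 0.316 (0.122 to 0.690) and 0.255 (0.0667 to 0.700), where 2.25% and 1.9% of genes were called lower.

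Cxcl12 was called lower in Esm1-led cells, at a ratio of 0.498 (0.412 to 0.598), and in aCap-like cells, at 0.232 (0.0618 to 0.615), where 1.43% and 1.78% of genes were called lower. In WT aCap-like cells 1 cell held 36 of the 86 UMIs. The call held with the highest cell of each library left out, at 4.74 CPM in KO and 23.4 CPM in WT. That KO level came from 2 UMIs, fewer than the 3 counts used as a floor. In AT2-like cells Cxcl12 was 1.48 CPM in KO and 8.99 CPM in WT, under the minimum for a call. The ratio there was 0.165 (0.0915 to 0.279), and the part of free RNA in the aCap-like difference was not tested. In gCap-like cells the ratio was 0.805 (0.736 to 0.880), in arterial-like cells 0.774 (0.708 to 0.845) and in adventitial fibroblast-like cells 0.702 (0.608 to 0.809), none of them 1.5-fold. The calls in venous-like cells (0.101, 0.0119 to 0.378, with 1.1% of 8189 genes lower) and in smooth muscle-like cells (0.521, 0.379 to 0.710, with 3.72% of 8359 genes lower) each rested on 1 WT cell. With the highest cell of each library left out, the smooth muscle-like level was 92.2 CPM in KO and 85.0 CPM in WT and the venous-like level 9.92 CPM in KO and 40.7 CPM in WT, and neither was called. In the Npnt-led cells the ratio of 0.107 (0.00257 to 0.686) was not called, and with the highest cell of each library left out, at 0 CPM in KO and 27.7 CPM in WT, it was called lower, where 4.23% of 8695 genes were in all cells.

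Ackr3 differed between the libraries in the vein and the adventitia. In venous-like cells the ratio was 0.395 (0.257 to 0.586), called lower where 1.1% of 8189 genes were, though from 13 KO cells. In adventitial fibroblast-like cells it was 0.584 (0.421 to 0.802), called lower where 3.63% of 8247 genes were. The direction differed by sex there, with 203 CPM (141 to 284) in 14 Xist-only and 51.7 CPM (33.8 to 75.8) in 28 Y-only KO cells, against 144 CPM (119 to 173) in 66 Xist-only WT cells, so only the Y-only KO cells lay below WT, and the Xist-only intervals overlapped. In gCap-like cells it was 1.04 (0.798 to 1.35). In aCap-like and arterial-like cells the ratios were 2.03 (1.18 to 3.39) and 2.40 (1.09 to 5.27), with overlapping intervals and no call. AT2 marker RNA also differed, at 2773 CPM in KO and 5591 CPM in WT gCap-like cells, and its part in these differences was not tested.

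The receptors shared cells in the Igfbp3-led cluster and seldom elsewhere. Of its 124 KO cells, 43 (34.7%) had UMIs of both receptors, 62 had Ackr3 without Cxcr4 and 1 had Cxcr4 without Ackr3. Before thinning both were seen in 3 of 46 KO and 12 of 210 WT Esm1-led cells. They were seen in 0 of 203 KO and 16 of 739 WT gCap-like cells, and in 1 of 23 KO and 4 of 77 WT arterial-like cells. At 1500 UMIs per cell both were seen in 23 of 118 Igfbp3-led KO cells (19.5%). There Ackr3 was in 23 of the 28 cells that had Cxcr4 (82.1%) and in 54 of the 90 that had none (60.0%). At the same depth both were seen in 0 of 195 KO and 6 of 690 WT gCap-like cells, in 0 of 44 KO and 0 of 206 WT Esm1-led cells, and in 0 of 22 KO and 3 of 75 WT arterial-like cells. Ligand and Cxcr4 were seen together in 3 of 44 KO and 31 of 206 WT Esm1-led cells and in 1 of 22 KO and 17 of 75 WT arterial-like cells. For gCap-like cells the numbers were 2 of 195 in KO and 23 of 690 in WT. Among WT cells with Cxcr4, the ligand was seen in 31 of 52 Esm1-led, 17 of 17 arterial-like and 23 of 44 gCap-like cells. Among all WT cells of these classes it was seen in 94 of 206, 73 of 75 and 283 of 690. In the Igfbp3-led cells Cxcl12 and Cxcr4 were found together in 2 of 118 cells.

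**Figure D3:**
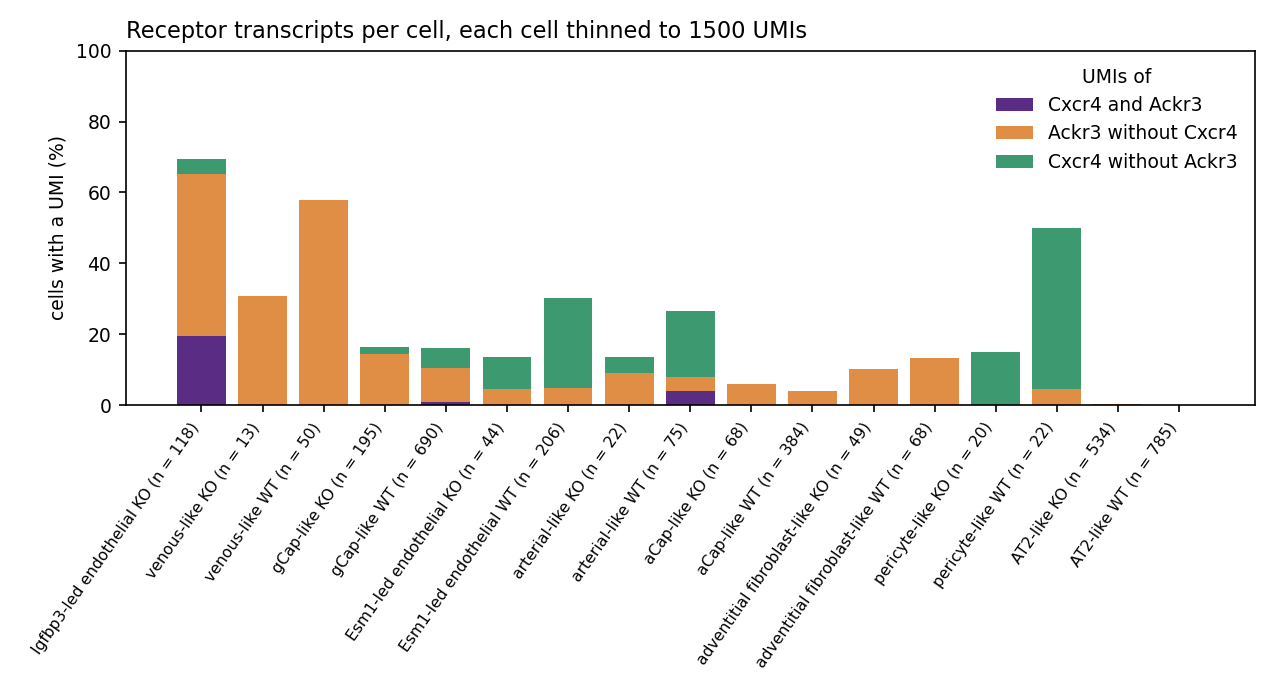
Share of cells with a UMI of Cxcr4, Ackr3 or both (%), each cell thinned to 1500 UMIs, by class with KO left of WT; n is the number of cells deep enough, and colours stand for the receptor combination. The Igfbp3-led KO cells have the tallest bar (69.5% with a receptor) and the largest share with both (19.5%), venous-like cells have Ackr3 alone, and AT2-like cells lie near 0.

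The sexes were mixed in KO and not in WT. Among sex-linked transcripts, 57 of the Igfbp3-led KO cells showed only Xist and 45 showed only Y-linked genes, while the other KO endothelial-like cells had 18 and 218, and the WT ones 1362 and 0. The receptor pattern was present in both sexes. In Igfbp3-led KO cells Cxcr4 was 371 CPM (310 to 441) with Xist alone and 308 CPM (242 to 386) with Y-linked transcripts alone, and Ackr3 was 932 CPM (833 to 1039) and 841 CPM (730 to 965). Cxcl12 was lower in the Xist-only cells of the cluster, at 14.4 CPM (4.67 to 33.6), than in its Y-only cells, at 107 CPM (69.7 to 156). Those levels came from 5 and 26 UMIs. Of the 32 Cxcl12 UMIs in all 124 KO cells of the cluster, 1 cell held 11 and the 5 highest cells held 71.9%.

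Outside the cluster the comparison of KO with WT was one of mostly Y-only with Xist-only cells, so genotype and sex cannot be told apart there. In gCap-like cells Cxcr4 was 7.08 CPM (1.93 to 18.1) in 111 Y-only KO cells and 38.6 CPM (31.4 to 47.0) in 664 Xist-only WT cells, and the 5 Xist-only KO cells had 0 UMIs. Cxcl12 was 734 CPM (665 to 809) in those Y-only KO cells and 798 CPM (764 to 833) in the Xist-only WT cells. The 18 Xist-only KO cells outside the cluster had 0 Cxcr4 UMIs (0 to 31.3 CPM), against 53.7 CPM (48.1 to 59.7) in the 1362 Xist-only WT cells. They had Cxcl12 at 144 CPM (84.0 to 231) and Ackr3 at 238 CPM (158 to 343), against 816 CPM (793 to 838) and 88.3 CPM (81.0 to 95.9) in those WT cells. These 18 cells spread over several classes, so the class makeup differs as well. The 218 Y-only KO cells outside the cluster had Cxcl12 at 840 CPM (789 to 892), Cxcr4 at 25.0 CPM (17.0 to 35.5) and Ackr3 at 67.8 CPM (54.1 to 84.0), so their ligand level overlapped that of the Xist-only WT cells and their Cxcr4 level lay below that of the WT cells. In arterial-like cells Cxcl12 was 5826 CPM (5340 to 6345) in 16 Y-only KO cells and 576 CPM (336 to 922) in 3 Xist-only KO cells, against 5958 CPM (5695 to 6230) in 70 Xist-only WT cells.

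**Figure D4:**
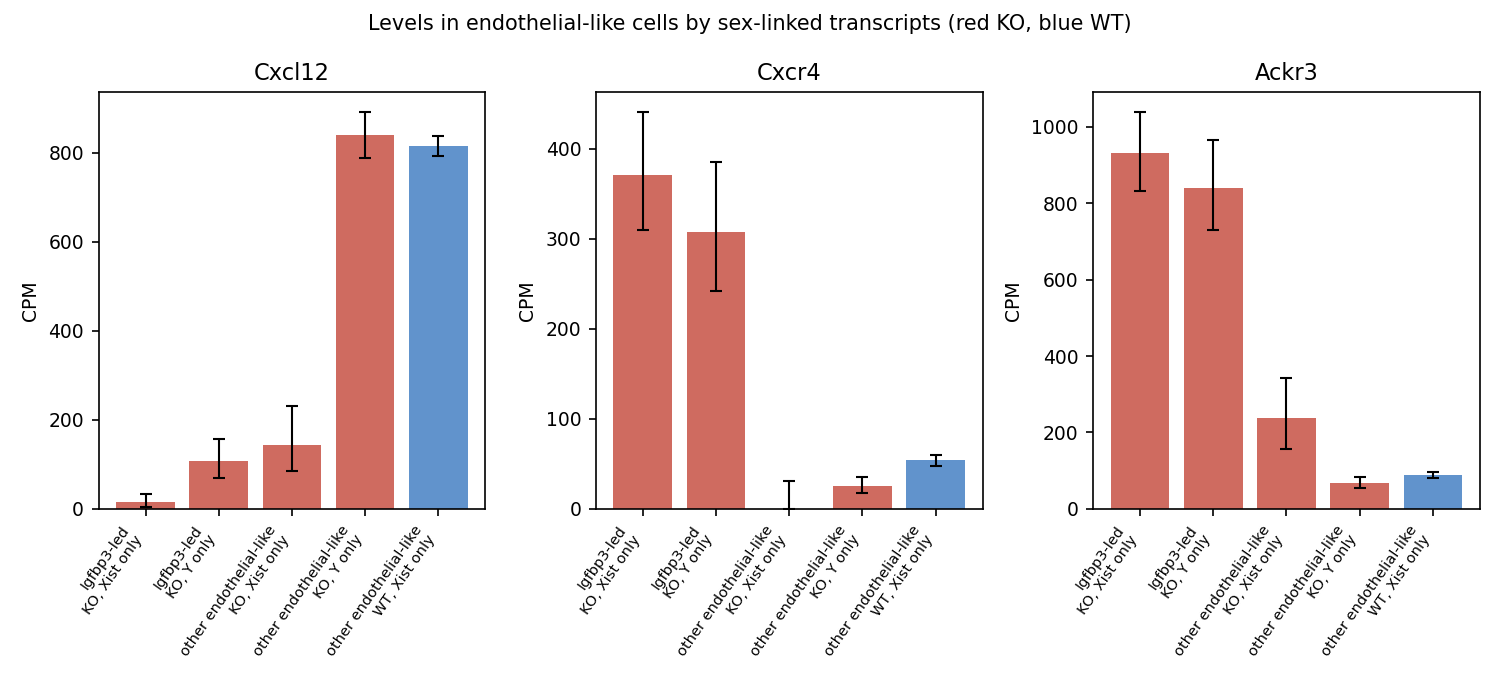
CPM of each gene in endothelial-like cells typed by Xist alone or by Y-linked transcripts alone, Igfbp3-led KO cells at the left, other KO cells in the middle and other WT cells at the right, with 95% Poisson intervals. Cxcr4 and Ackr3 are high in Igfbp3-led cells of both kinds (371 and 308 CPM, 932 and 841 CPM), and Cxcl12 is low in both (14.4 and 107 CPM).

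Genes around the axis were read from 5 lists. Of 13 measured genes that process or present the ligand, 2 were called higher and 4 lower in Igfbp3-led KO cells against other KO endothelial-like cells, with a median log2 ratio of -0.35 against -0.06 over all 8397 genes, of which 7.32% were called higher and 8.47% lower; the same shares stand behind the next 4 counts. Hspg2, the heparan sulfate proteoglycan perlecan, was 288 CPM in the Igfbp3-led cells and 13.8 CPM in the others. Dpp4, a protease that inactivates the ligand by trimming its end, was 45.6 CPM and 223 CPM, and Hs3st1, a heparan sulfate sulfotransferase, 19.1 CPM and 88.9 CPM. Perlecan, which can hold such ligands, was thus high in these cells, and the protease low.

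Of 5 measured other ligands and partners, 2 were called higher and none lower in the cluster, with a median of 0.68. They were Adm, the vasodilator peptide adrenomedullin that Ackr3 also takes up, at 109 CPM in Igfbp3-led cells and 7.66 CPM in the others, and Hmgb1, a nuclear protein that binds Cxcl12, at 1006 CPM and 629 CPM. Adm also belongs to the tip cell markers. Of 28 G protein and arrestin genes, 6 were called higher and 3 lower, with a median of 0.06. Dock4, an activator of small GTPases, was 80.9 CPM in the cluster and 31.7 CPM in the others, and Gng2, a G protein gamma subunit, 185 CPM and 83.3 CPM. Rgs3, which shortens G protein signals, was 30.9 CPM in the cluster and 85.3 CPM in the others.

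Of 21 measured genes listed as arterial and hypoxia regulators, 13 were called lower and 2 higher in the cluster, with a median of -0.75. That list also holds BMP target genes and Foxf1, a factor of lung capillary endothelium. The lowest relative to the other cells included BMP target genes, Id1 at 33.8 CPM against 837 CPM, Id3 at 47.1 CPM against 988 CPM and Smad6 at 112 CPM against 557 CPM. Klf4, a flow-responsive factor, was 316 CPM against 1073 CPM. The genes named from this list were thus BMP targets and Klf4, and do not show a fall of arterial or hypoxia genes. The 2 genes called higher are not named here. Of 6 other chemokines and receptors, 3 were called lower and none higher, with a median of -1.57; they were Ccl21a, a lymphatic chemokine whose 639 CPM in the other cells include 7 lymphatic-like KO cells, Ackr2, another scavenging receptor, at 25.0 CPM against 157 CPM, and Cx3cl1 at 7.36 CPM against 51.6 CPM. Many of these genes could enter the clustering, so the counts describe the cluster and are no test of it.

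In gCap-like cells few list genes were called between the libraries. In the order of the lists above, 1 of 12, 0 of 4, 0 of 27, 3 of 21 and 0 of 6 measured genes were called higher in KO and 1, 1, 2, 1 and 1 lower. Over all 8526 genes 1.63% were higher and 2.71% lower, with a median log2 ratio of -0.02; the list medians were 0.03, -0.43, -0.07, 0.04 and -0.07. Cd74, a receptor part for MIF and also a leukocyte and AT2 transcript, was 13.5 CPM in KO and 87.4 CPM in WT. Foxf1, a factor of lung capillary endothelium, was 1424 CPM in KO and 785 CPM in WT, and Klf4 1108 CPM in KO and 669 CPM in WT. Smad6 was also called higher, at 608 CPM in KO and 393 CPM in WT. Foxo1 was called lower, at 98.5 CPM in KO and 160 CPM in WT. Hs3st1 was 113 CPM in KO and 200.3 CPM in WT.

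Over all endothelial-like cells 2 of 14, 1 of 5, 3 of 28, 1 of 21 and 1 of 7 measured genes of the same lists were called higher in KO and 1, 1, 2, 1 and 3 lower, with list medians of 0.15, 0.02, 0.05, -0.09 and -0.46 against -0.05 over all 8627 genes, of which 3.96% were called higher and 5.15% lower. Hspg2 was 84.6 CPM in KO and 17.0 CPM in WT, and Adm 33.8 CPM in KO and 1.21 CPM in WT. In the KO cells outside the Igfbp3-led cluster Hspg2 was 13.8 CPM, against 17.0 CPM in WT. Adm was 7.66 CPM (4.29 to 12.6) in those KO cells, still above the 1.21 CPM (0.524 to 2.39) in WT. Cxcl15, an AT2 chemokine, was called lower at 127 CPM in KO and 283 CPM in WT, and the part of AT2 RNA in this was not tested.

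The genes whose levels went most closely with each member were sought among 6896 genes over 20 points, each a class in a library, by Pearson's r of log2(CPM + 10). The points share libraries and depth, so r is a description. For Cxcl12 they were C2cd2 (0.88), Ntn1, the guidance cue netrin-1 (0.86), Wfdc1 (0.86), Fat4 (0.83) and Thsd7a (0.83); Wfdc1 was one of the markers used to name gCap-like cells. For Cxcr4 they were Sult1a1 (0.90), the Notch-induced regulator Nrarp (0.87), Shroom2 (0.86), Ralgapa1 (0.86) and Acin1 (0.86). The first 3 of these were highest in the Igfbp3-led KO cells, at 341, 271 and 199 CPM, and the other two in WT pericyte-like cells. For Ackr3 they included Grn (0.84), Vegfc, a growth factor of lymphatic and venous endothelium (0.82), Ppp1cc (0.82) and Lysmd2 (0.82), of which Vegfc was highest in WT venous-like cells at 305 CPM.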

How the data were processed

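Mouse lung cells were profiled with 10x 3' v3 chemistry. The authors deposited raw counts of UMIs for each barcode and gene; the submitters' processing notes name Cell Ranger 3.0.1 and the build mm10. There were 2196 KO barcodes with 17864581 UMIs and 3482 WT barcodes with 25667220 UMIs. A barcode was kept if it had 500 or more genes and no more than 10% of UMIs from mitochondria (1326 KO, 2745 WT), and Scrublet doublets were removed (12 KO, 0.905%; 37 WT, 1.35%).

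Clustering used scanpy 1.11.5 and leidenalg 0.10.2 (30 components, 20 neighbours, resolution 1) on 1539 variable genes, without the 3 members and without genes that differed between the libraries within a class. Endothelial cells were clustered again on 1590 genes. To be named, a cluster had to show 3 listed markers, each 2-fold higher than elsewhere and seen in 10% of its cells, and hold markers among its 10 leading genes; clusters of low depth stayed unnamed. This scoring rule, the calling of clusters by a leading gene and a second naming pass for 1 gCap-like cluster were chosen after the first clusters had been seen. The members and all lists were chosen with earlier results of these data known. Of 115 listed pathway genes 112, and of 184 markers 183, are in the files.

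UMIs were summed over the cells of a class in each library and scaled to CPM, with exact Poisson intervals; ratios have exact conditional binomial intervals and shares exact Clopper-Pearson intervals, all at 95%. No p-value was computed. The calling rule was tested on simulated data first. Shares use cells thinned to 1500 UMIs. All members are named in every class, with the 5 genes most like each (among genes with at least 50 CPM in a class of at least 20 cells), and up to 4 called genes of each list. One gene that this rule picks is not reported here. Alternatives were other cell filters, scalings and clusterings, scores without clusters, the 5 richest cells left out, and Xist-only cells.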

Additional observations from a re-analysis of the deposited data

Results flagged for a closer look

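Some effects of KO over WT ran in opposite directions in different cells, and those differences were not tested, since each group is 1 library. For Cxcr4 the log2 ratio was 0.94 over all endothelial-like cells and -1.74 in pericyte-like cells. Without the 124 Igfbp3-led KO cells the endothelial ratio was -1.20, the same direction as in pericyte-like cells, and it was -1.78 in gCap-like and -0.96 in Esm1-led cells. For Ackr3 it was 1.74 over all endothelial-like cells and -0.78 in adventitial fibroblast-like cells. Without the Igfbp3-led cells the endothelial ratio was 0.035. Among adventitial fibroblast-like cells Ackr3 was 203 CPM in Xist-only KO cells, against 144 CPM in Xist-only WT cells with overlapping intervals, and 51.7 CPM in Y-only KO cells.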

How the results depend on the processing

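No paired analysis was possible because each group is 1 library. Of 104 alternatives, 97 kept the sign reported and 1 reversed a called value; 73 stayed within the reported interval or the 1.5-fold band. Values below are log2 ratios. Of the 75 Xist-only KO endothelial-like cells, 57 were Igfbp3-led, against 1 of 1363 in WT. Xist-only values over all endothelial-like cells are therefore weighted towards that cluster in KO, and do not compare like cells of 1 sex. Cxcl12 over all endothelial-like cells (-0.59 as reported) was -0.42 with the strict filter (1000 genes, 5% mitochondrial), -0.73 thinned, -0.85 with the 5 cells richest in UMIs left out, -4.11 in Xist-only cells and -0.20 without the Igfbp3-led cells. In gCap-like cells (-0.31) it was -0.64 with the loose filter (200 genes, 20%), -0.48 with doublets kept, -0.65 by marker scores, -0.58 without those 5 cells, and -0.53 and -0.015 in either gCap-like cluster. Cxcr4 over all endothelial-like cells (0.94) was 0.59 thinned, 0.66 without 5 cells, 2.35 in Xist-only cells and -1.20, reversed, without the Igfbp3-led cells. In gCap-like cells (-1.78) it was -2.98 without 5 cells. Ackr3 over all endothelial-like cells (1.74) was 1.91 thinned, 3.09 in Xist-only cells and 0.035 without the Igfbp3-led cells. In gCap-like cells (0.06) it was 0.73 thinned, 0.44 as a mean over cells and 3.55 in Xist-only cells, of which KO had 5. In those 5 cells Cxcl12 and Cxcr4 had 0 UMIs and gave no value.

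In WT, Cxcl12 in arterial-like over gCap-like cells (2.89) was 2.67 with the loose filter, 3.07 with the strict filter, 2.71 with doublets kept, 1.98 at resolution 2 and 2.68 by marker scores. Cxcr4 in aCap-like over gCap-like cells (-2.49) was -3.88 with the strict filter, -1.52 with doublets kept and -3.47 with library-dependent genes kept. Ackr3 in venous-like over gCap-like cells (3.03) was 2.46 by marker scores. The cause of these shifts was not tested, beyond the cells that each setting removes. Under the filters, doublets, gene choice and resolution tried, an endothelial cluster was picked for being made almost wholly of KO cells. Its leading gene was not checked in the alternatives, and scores without clusters were not included. Its KO makeup was thus set by the choice and is no result. The cluster so picked held 81 to 131 KO cells. Its ratios to the other KO endothelial-like cells were 0.0625 to 0.103 for Cxcl12, 8.97 to 14.7 for Cxcr4 and 9.38 to 12.0 for Ackr3. The settings without the Igfbp3-led cells and with single gCap-like clusters were added after seeing the data.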
